A study of Sus scrofa with 12 samples.

Results

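The messenger RNA of 7 genes for matricellular proteins of the heart valve was followed in interstitial cells of the pig aortic valve, which resemble fibroblasts and make the leaflet's matrix. The 7 genes were SPARC, SPP1, POSTN, CTHRC1, THBS1, THBS2 and TNC, taken by name from the 22861 genes of the deposited gene table. The table named 4 of them, and the rows of SPARC, CTHRC1 and TNC, which carried no symbol, were found by gene ID. All 7 were among the 13046 genes expressed highly enough to be tested, and each stood above 1 RPKM in all 12 libraries. RPKM is the read count scaled to exon length and library size, so levels of different genes are compared per length.

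The libraries fell into 4 groups of 3 biological replicates. Cells of all groups grew in DMEM on glass, which the labels name as the stimulus for calcification. Stage 1 was taken at day 5 and Stage 2 at day 8, and both carried no added agent in the labels. Stage 3+DMSO received the solvent DMSO at Stage 3, and Stage 3+KPT received KPT at Stage 3. The sources used here give neither the day of the Stage 3 libraries nor the dose or length of exposure. The labels do not spell out KPT, a prefix otherwise known from inhibitors of XPO1, the nuclear export receptor. The labels do not say whether replicates came from separate animals. The p-values therefore set group differences against the spread between these cultures, pooled over the 4 groups. Stage 3+DMSO differed from Stage 2 in both stage and solvent, and the 2 cannot be told apart.

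Matricellular proteins are secreted into the extracellular matrix but act mainly as signals and adaptors between matrix, growth factors and cell surface receptors rather than as load-bearing fibres. They are typically low in resting adult tissue and high in development, wound repair and fibrosis. SPARC, POSTN and osteopontin, the product of SPP1, are also known from bone, and osteopontin has been studied in valve calcification.

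Library totals recovered from the values ranged from 13188023 to 24724019 reads. Replicate 1 of Stage 3+DMSO stood apart from its group over the whole table, at a chi-square per degree of freedom of 38.3 and 44.4 against replicates 2 and 3, the 2 highest values among the 12 replicate pairs, with 12.4 between replicates 2 and 3. All 10 markers of valve interstitial cells and fibroblasts were expressed, including VIM, DCN and COL1A2, with a summed level of 20557 to 21511 RPKM at Stage 1, 27940 to 28914 at Stage 2, 26203 to 28845 in Stage 3+DMSO and 14293 to 15096 in Stage 3+KPT. The markers went both ways with KPT. Against Stage 3+DMSO, 6 of the 10 were called lower and 2 higher, beside 29.5% and 30.5% of all tested genes. DCN was among the higher (log2 fold change 0.34, limma adjusted p = 0.00118). Of markers of other cells, 3 of 12 for leukocytes, 3 of 9 for endothelial cells and 1 of 7 for cardiomyocytes were expressed at 1 RPKM or more in 3 libraries. The defining leukocyte gene PTPRC reached at most 0.0184 RPKM and the endothelial genes VWF and KDR at most 0.0434 and 0.0922. TNNT2 and MYL2 of cardiomyocytes were at 0. The endothelial genes PECAM1 and TIE1 stood at 4.92 to 12.0 and 1.29 to 5.46 RPKM, EMCN reached 2.25 and TNNI3 of cardiomyocytes 1.47. PECAM1 was lower in Stage 3+DMSO than at Stage 2 (log2 fold change -0.41, limma adjusted p = 0.0151), beside 11.1% of all tested genes called lower. TIE1 and EMCN were not called there. With KPT PECAM1 and TIE1 were lower (-0.43 and -0.74, limma adjusted p = 0.00800 and 0.00539), beside 29.5% of all tested genes called lower. EMCN, also tested, went the other way without a call (0.58, limma adjusted p = 0.171). Summed endothelial markers were 16.2 to 16.5 RPKM at Stage 1, 14.8 to 17.6 at Stage 2, 11.7 to 17.3 in Stage 3+DMSO and 7.22 to 11.6 in Stage 3+KPT. Summed cardiomyocyte markers were 0.267 to 1.28, 1.06 to 1.70, 1.28 to 1.94 and 1.13 to 1.62 RPKM in the same order. The part of other cells in the results below was not tested. In these bulk libraries fewer cells of a type and less RNA per cell cannot be told apart.

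The 7 genes did not move as a block. SPARC and CTHRC1 rose from Stage 1 to Stage 2 and fell with KPT, POSTN rose at each step and with KPT, and THBS1 fell at each step and with KPT. THBS2 and TNC fell with KPT to their lowest levels, and SPP1 passed the threshold in no comparison. Together the 7 genes made up 1.66% to 1.79% of all summed gene RPKM at Stage 1, 2.36% to 2.42% at Stage 2, 2.19% to 2.33% in Stage 3+DMSO and 1.29% to 1.31% in Stage 3+KPT. Most of that share was SPARC and THBS1 in every group, so it is no trait of the 7 genes alike. SPARC alone made up 0.647% to 0.678% at Stage 1 and 1.54% to 1.63% at Stage 2, per 465 annotated bases.

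**Figure D1:**
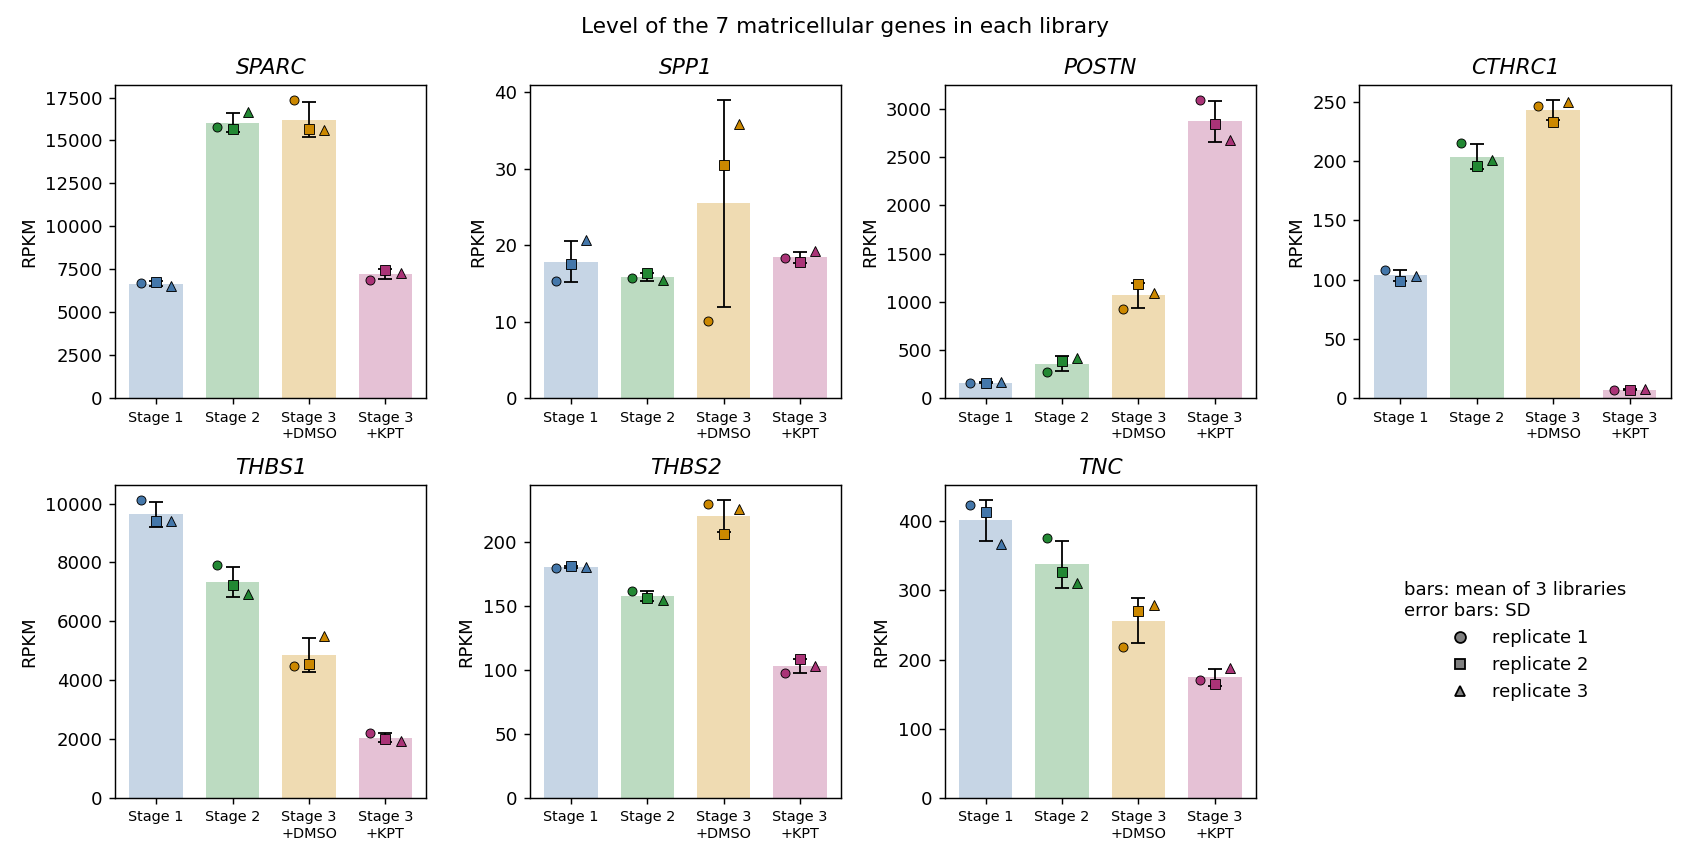
Level of each of the 7 genes (RPKM, linear axes from 0 that differ between panels) in the 4 groups. Bars are means of 3 libraries, error bars are SDs and symbols are the replicates; POSTN climbs from 159.5 to 2872 RPKM while CTHRC1 drops to 6.93 RPKM with KPT.

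Counts of called genes rest on limma with a Benjamini-Hochberg adjusted p under 0.05 over all tested genes. From Stage 1 to Stage 2, 3 of the 7 genes rose and 2 fell, beside 40.7% of all tested genes called (16.3% higher and 24.4% lower). From Stage 2 to Stage 3+DMSO, 3 rose and 2 fell, beside 44.1% (33.0% higher and 11.1% lower). Between Stage 1 and Stage 3+DMSO, 4 were higher and 2 lower, beside 47.7% (30.5% higher and 17.3% lower). With KPT, 1 rose and 5 fell relative to Stage 3+DMSO, beside 60.0% (30.5% higher and 29.5% lower). The replicates of the groups compared did not overlap for 5, 5, 6 and 6 of the 7 genes in these comparisons, beside 52.5%, 51.1%, 59.0% and 65.2% of all tested genes. Calls and separate groups were thus common in the whole table, and with 7 genes these counts alone do not set the group apart. The median log2 fold change of the 7 genes was -0.15, 0.25, 0.33 and -1.09 in these 4 comparisons, and that of all tested genes -0.05, 0.15, 0.10 and 0.02. Stage 1 and Stage 2 each enter 2 of the comparisons and Stage 3+DMSO enters 3, so the comparisons share libraries and are set side by side here.

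**Figure D2:**
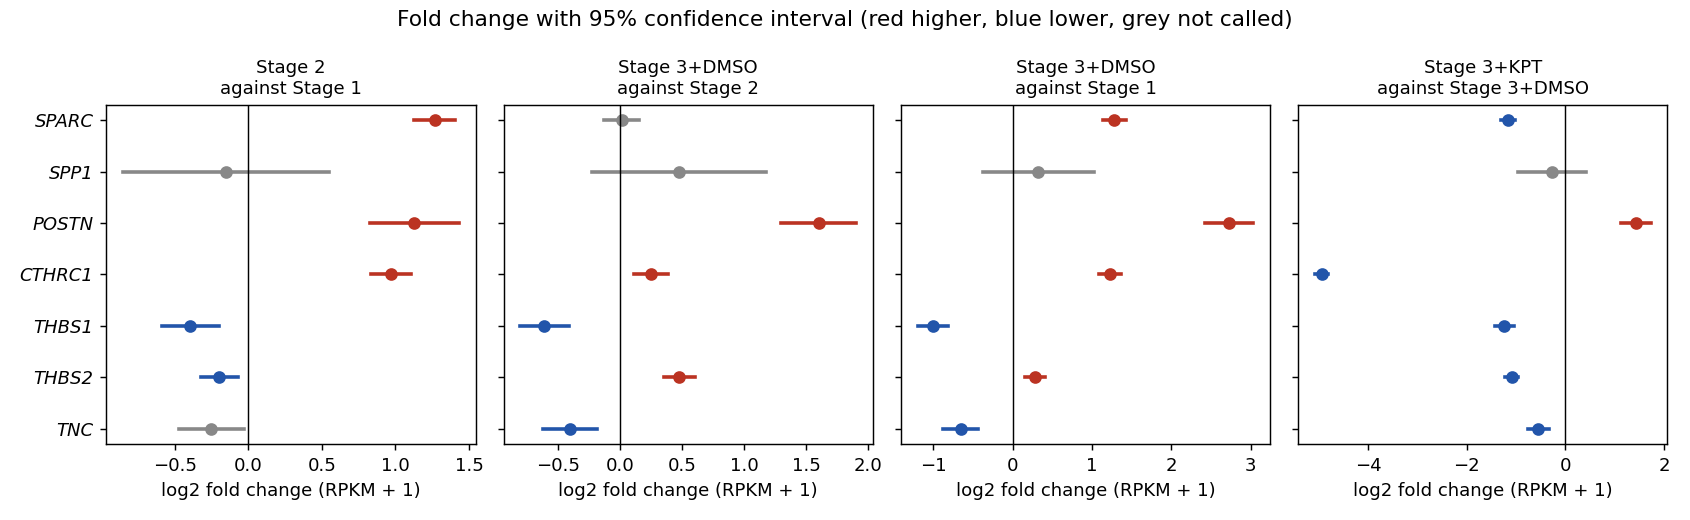
Log2 fold change on the log2(RPKM + 1) scale, with its 95% confidence interval from limma, for the 7 genes in the 4 comparisons (horizontal scales differ between panels). Red marks genes called higher, blue lower and grey not called; with KPT the estimate of POSTN alone lies to the right of 0, and the wide grey intervals of SPP1 span 0 in every panel.

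SPARC, osteonectin, binds collagen and calcium and is involved in collagen fibril assembly. The gene (ENSSSCG00000017082) lies on the minus strand of chromosome 16 at 77576865 to 77582777, in the coordinates of the deposited table. The build of those coordinates was not stated in any source used here. Its annotated model held 4 exons and 465 bases. SPARC stood at 6723, 6771 and 6519 RPKM at Stage 1 and at 15763, 15683 and 16677 at Stage 2. It stood at 17368, 15664 and 15633 RPKM in Stage 3+DMSO and at 6899, 7473 and 7304 in Stage 3+KPT. Stage 2 and Stage 3+DMSO overlapped, every other pair of groups was separate, and KPT libraries sat just above Stage 1. That last order is in deposited RPKM and was not tested. Rescaling by the median ratio divides by 0.967 to 0.987 at Stage 1 and 1.06 to 1.07 with KPT. The Stage 1 and KPT libraries then overlap, so that order does not hold after rescaling.

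By RPKM, which here divides by only 465 annotated bases, SPARC was the highest gene of the table in all 3 Stage 3+DMSO libraries. It ranked 1 or 2 at Stage 2, 14 or 15 at Stage 1 and 6 or 7 with KPT. It rose from a mean of 6671 ± 134 to 16041 ± 552 RPKM at Stage 2, n = 3 with SD, a log2 fold change of 1.27 (SE 0.07, limma adjusted p = 1.95e-07). Stage 3+DMSO (16222 ± 993 RPKM) differed from Stage 2 by 0.01 on the log2 scale (95% interval -0.13 to 0.16, limma adjusted p = 0.872), and the sign of that difference turned under several alternatives. With KPT it fell by 1.17 on the log2 scale to 7225 ± 295 RPKM (limma adjusted p = 1.03e-08).

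POSTN encodes periostin, which binds collagen and integrins and supports collagen cross-linking, and is a known product of developing valve cushions. The gene (ENSSSCG00000009361) lies on the minus strand of chromosome 11 at 13198182 to 13233797, with 23 exons and 5237 annotated bases. POSTN stood at 158.0, 156.7 and 163.8 RPKM at Stage 1 and at 266.3, 385.4 and 417.0 at Stage 2. It stood at 928.9, 1187 and 1089 RPKM in Stage 3+DMSO and at 3095, 2843 and 2677 in Stage 3+KPT. No 2 groups overlapped, and the order of the groups was the same as the order of stages with KPT on top.

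The rise of POSTN was 1.13 on the log2 scale from Stage 1 to Stage 2 (limma adjusted p = 5.94e-05) and 1.60 from Stage 2 to Stage 3+DMSO (SE 0.14, limma adjusted p = 2.92e-06). KPT libraries averaged 2872 ± 210 RPKM against 1068 ± 130 in Stage 3+DMSO (SD, n = 3), a log2 fold change of 1.43 (SE 0.14, limma adjusted p = 1.85e-06). By mean RPKM, Stage 3+DMSO exceeded Stage 1 by 6.70-fold. Spread was widest at Stage 2, where replicate 1 was the lowest of the group (coefficient of variation 22.3%). All of these calls held in every alternative run, which included leaving out each library.

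CTHRC1 encodes a secreted glycoprotein with a short collagen-like stretch, known from arterial injury and fibroblast activation. The gene (ENSSSCG00000006051) lies on the minus strand of chromosome 4 at 36579490 to 36591411, with 6 exons and 1120 annotated bases. CTHRC1 stood at 108.6, 99.1 and 103.3 RPKM at Stage 1 and at 215.6, 195.7 and 200.9 at Stage 2. It stood at 246.4, 233.6 and 249.95 RPKM in Stage 3+DMSO and at 6.50, 7.003 and 7.29 in Stage 3+KPT. The 4 groups were all separate, and the KPT libraries, which held 102 to 202 reads of the gene, lay far below the rest.

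CTHRC1 rose from 103.7 ± 4.77 to 204.0 ± 10.3 RPKM at Stage 2 (SD, n = 3), a log2 fold change of 0.97 (limma adjusted p = 7.80e-07). From Stage 2 to Stage 3+DMSO it rose by 0.25 (limma adjusted p = 0.00591), but rescaling by the median ratio lowered this to 0.09 and ended the call (adjusted p = 0.341). With KPT its mean was 6.93 ± 0.400 against 243.3 ± 8.61 RPKM, 35.1-fold lower, a log2 fold change of -4.95 (SE 0.06, limma adjusted p = 5.57e-14). That was the largest change of the 7 genes in any comparison, and it ranged from -5.12 to -4.90 over the alternatives.

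THBS1 encodes thrombospondin 1, which binds CD36, CD47 and integrins and can activate latent TGF-beta. The gene (ENSSSCG00000004789) lies on the minus strand of chromosome 1 at 146905998 to 146923333, with 28 exons and 5818 annotated bases. THBS1 stood at 10134, 9397 and 9395 RPKM at Stage 1 and at 7905, 7226 and 6911 at Stage 2. It stood at 4468, 4546 and 5504 RPKM in Stage 3+DMSO and at 2212, 2010 and 1922 in Stage 3+KPT. No groups overlapped, and at Stage 1 the gene ranked 5 or 6 in the whole table, above SPARC per length.

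THBS1 fell by 0.39 on the log2 scale from Stage 1 to Stage 2 (limma adjusted p = 0.00391) and by 0.61 from Stage 2 to Stage 3+DMSO (limma adjusted p = 1.75e-04). The second of these was -0.28 after quantile normalization (adjusted p = 0.0106). With KPT the mean was 2048 ± 149 against 4840 ± 577 RPKM (SD, n = 3), a log2 fold change of -1.24 (SE 0.09, limma adjusted p = 1.12e-07). By RPKM, THBS1 and SPARC thus exchanged places, the first leading at Stage 1 and the second in the other groups. That order rests on annotated lengths of 5818 bases for THBS1 and 465 for SPARC. In reads THBS1 led in every group, with 515163 to 671035 against 146624 to 160054 in Stage 3+DMSO.

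THBS2, thrombospondin 2, shares the trimeric structure of THBS1 and is known for effects on collagen fibrils and matrix metalloproteinase levels. The gene (ENSSSCG00000004012) lies on the minus strand of chromosome 1 at 1590789 to 1616464, with 22 exons and 5691 annotated bases. THBS2 stood at 180.0, 181.2 and 180.8 RPKM at Stage 1 and at 161.9, 156.3 and 154.7 at Stage 2. It stood at 229.5, 205.9 and 225.97 RPKM in Stage 3+DMSO and at 97.3, 108.6 and 103.4 in Stage 3+KPT. Stage 3+DMSO was highest, followed by Stage 1, Stage 2 and Stage 3+KPT, and no groups overlapped.

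THBS2 rose by 0.48 on the log2 scale from Stage 2 to Stage 3+DMSO (SE 0.06, limma adjusted p = 4.15e-05) and was 1.09 lower with KPT (log2 fold change -1.09, limma adjusted p = 6.70e-09). The step from Stage 1 to Stage 2 was small, at -0.20 (limma adjusted p = 0.0174). That call was lost after rescaling by the median ratio (adjusted p = 0.0857) and without Stage 1 replicate 2, Stage 2 replicate 2 or Stage 2 replicate 3 (adjusted p = 0.0514, 0.0539 and 0.0527).

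TNC encodes tenascin C, a large hexameric glycoprotein that modulates cell adhesion and is known from wounds and diseased valves. The gene (ENSSSCG00000005494) lies on the minus strand of chromosome 1 at 286732772 to 286813962, with 30 exons and 4957 annotated bases. TNC stood at 424, 414 and 368 RPKM at Stage 1 and at 376, 327 and 311 at Stage 2. It stood at 219, 270.4 and 279 RPKM in Stage 3+DMSO and at 170.9, 164.3 and 187.7 in Stage 3+KPT. Stage 1 and Stage 2 overlapped in 1 library each, and the other groups were separate.

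TNC fell from 338.0 ± 34.0 RPKM at Stage 2 to 256.0 ± 32.6 in Stage 3+DMSO (SD, n = 3), a log2 fold change of -0.40 (limma adjusted p = 0.00618). Leaving out replicate 1 of every group took this to -0.21 (adjusted p = 0.0646). With KPT it fell to 174.3 ± 12.1 RPKM, by 0.55 on the log2 scale (limma adjusted p = 4.60e-04). Stage 2 lay 0.25 below Stage 1 without passing the threshold (log2 fold change -0.25, limma adjusted p = 0.0652), and the difference passed without Stage 1 replicate 3 or Stage 2 replicate 1 (adjusted p = 0.0488 and 0.0256).

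SPP1 encodes osteopontin, a phosphorylated, integrin- and CD44-binding protein that inhibits crystal growth and is also made by activated macrophages. The gene (ENSSSCG00000009216) lies on the minus strand of chromosome 8 at 140307938 to 140315415, with 7 exons and 1430 annotated bases. It was the lowest of the 7 genes per length in all groups but Stage 3+KPT, where CTHRC1 was lower. SPP1 stood at 15.3, 17.6 and 20.7 RPKM at Stage 1 and at 15.7, 16.4 and 15.4 at Stage 2. It stood at 10.1, 30.5 and 35.8 RPKM in Stage 3+DMSO and at 18.3, 17.8 and 19.2 in Stage 3+KPT. Stage 3+DMSO held the lowest library of all 12 and the 2 highest, so it overlapped every other group, and all neighbours in the order of means overlapped as well.

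Counting error was smaller than that spread. The 3 Stage 3+DMSO libraries held 287, 877 and 1073 reads of SPP1, with 95% Poisson intervals of 8.99 to 11.4, 28.5 to 32.5 and 33.7 to 38.0 RPKM, which cover counting error only. Replicates 2 and 3 were 3.01-fold and 3.54-fold above replicate 1. The SD of log2(RPKM + 1) among the 3 Stage 3+DMSO values was 0.94, against a median of 0.125 over all tested genes, and 0.460% of genes had a larger one in that group. In the other groups the SD of SPP1 was 0.21, 0.04 and 0.05. The fit shared 1 spread over the 4 groups, so every SPP1 comparison had an SE of 0.32.

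**Figure D3:**
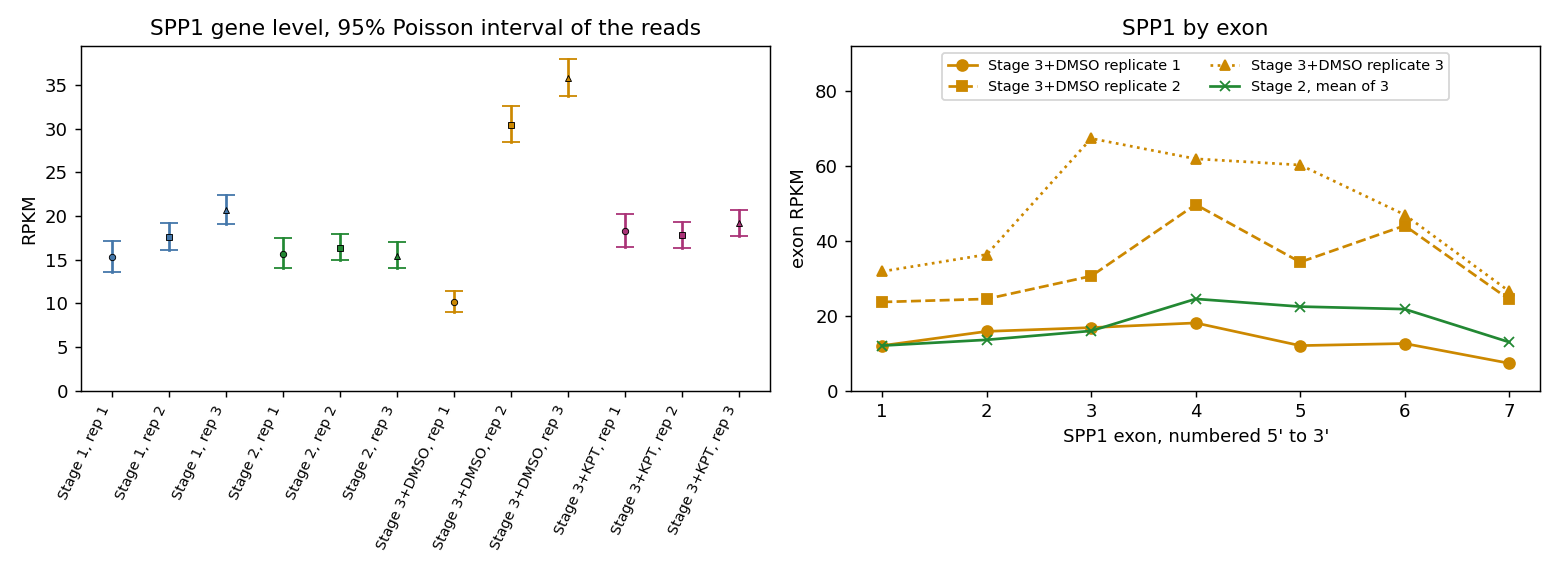
Left, SPP1 level (RPKM) in each of the 12 libraries with the 95% Poisson interval of its reads; right, RPKM of the 7 SPP1 exons in the 3 Stage 3+DMSO replicates and the Stage 2 mean. Stage 3+DMSO replicate 1 lies at 10.1 RPKM, below all others, and replicates 2 and 3 at 30.5 and 35.8, above all others; replicate 1 is the lowest of its group in 7 of 7 exons.

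With all libraries SPP1 did not pass the threshold in any of the 4 comparisons. Its log2 fold changes were -0.15, 0.48, 0.33 and -0.27 for Stage 2 against Stage 1, Stage 3+DMSO against Stage 2, Stage 3+DMSO against Stage 1 and Stage 3+KPT against Stage 3+DMSO (limma adjusted p = 0.738, 0.249, 0.424 and 0.487). The 95% interval for Stage 3+DMSO against Stage 2 ran from -0.22 to 1.18, so a 2-fold rise (1 on the log2 scale) lay within it. Without Stage 3+DMSO replicate 1 the last 3 of these became 1.02, 0.86 and -0.81 and all passed (limma adjusted p = 3.60e-05, 9.03e-05 and 8.30e-05). Without Stage 3+DMSO replicate 3 the KPT difference changed sign, at 0.05 (adjusted p = 0.897). Replicate 1 of Stage 3+DMSO, the library that also stood apart over the whole table, thus decided these calls, and the part of that wider difference in the spread of SPP1 was not tested.

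Other values were set beside this spread. Replicate 1 of Stage 3+DMSO was the lowest of its group in 7 of 7 SPP1 exons and the lowest of all 12 libraries in 4. Exon and gene values come from the same libraries, so the exons largely restate the gene level and are no separate support. Of the 12 leukocyte genes, 9 were below 1 RPKM in every library (0.706 at most) and CD163 and ITGAM were at 0 throughout. The other 3 were CD68, CD14 and CD79A. CD79A, a B-cell gene, was high in every library (222 to 293 RPKM). Summed over the list, leukocyte genes gave 247 to 286 RPKM at Stage 1, 280 to 307 at Stage 2, 237 to 279 in Stage 3+DMSO and 269 to 308 in Stage 3+KPT. Without CD79A the sums in Stage 3+DMSO replicates 1, 2 and 3 were 14.5, 15.2 and 14.9. Within that sum CD68, a macrophage gene, stood at 1.55, 2.13 and 3.91 RPKM, the order of SPP1 in these libraries, and CD14 at 12.7, 12.9 and 10.8. The part of leukocytes in the spread of SPP1 was not tested. Of osteoblast and osteoclast genes, IBSP and CALCR were at 0 in all libraries, BGLAP stayed at or below 3.49 RPKM, and the sum of that list was 1126 to 1170, 1227 to 1315, 1950 to 2812 and 10074 to 11770 RPKM in the 4 groups, nearly all of it CTSK.

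The deposited exon values, from the same libraries as the gene values, were used to ask whether any exon moved apart from its gene. The measure was log2(exon RPKM + 1) less log2(gene RPKM + 1), tested exon by exon with limma. Of the 120 exons of the 7 genes, 109 were tested, and the 11 that were not belonged to TNC. For Stage 2 against Stage 1 and Stage 3+DMSO against Stage 1, 0 exons were called (9 and 5 of 109 had an unadjusted p under 0.05, beside 7.29% and 6.58% of all tested exons, and limma's diffSplice called 1 in each), beside 0.0526% and 0.130% of all tested exons. For Stage 3+DMSO against Stage 2, 1 was called, beside 0.0459%, and with KPT 3 were called, beside 0.352%. With KPT 44 of the 109 had an unadjusted p under 0.05, beside 12.1% of all tested exons. The exons of SPARC, SPP1, THBS2 and TNC gave no call. With KPT all exons of SPARC, SPP1, CTHRC1, THBS1 and THBS2 (4, 7, 6, 28 and 22) were lower, as were 17 of 19 tested exons of TNC. That is the direction of their gene levels.

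The call for Stage 3+DMSO against Stage 2 and 1 of the 3 with KPT were the same exon, exon 21 of POSTN counted from the 5′ end (84 bases, chromosome 11, 13206495 to 13206578). The C-terminal region of periostin is known to be alternatively spliced. Exon 21 and exon 17 lay far below their neighbours in every group. As a percentage of the mean RPKM of exons 20 and 22, exon 21 stood at 3.19, 4.87 and 2.97 at Stage 1 and at 2.22, 2.72 and 2.23 at Stage 2. It stood at 6.20, 5.58 and 4.82 in Stage 3+DMSO and at 2.01, 2.09 and 1.89 in Stage 3+KPT. The Stage 3+DMSO libraries were above those of Stage 2 and KPT without overlap, and 1 Stage 1 library reached into their range.

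In RPKM, exon 21 averaged 14.6 at Stage 1, 21.3 at Stage 2, 149.8 in Stage 3+DMSO and 134.5 with KPT. With KPT it was thus the only POSTN exon not above its Stage 3+DMSO level, since 22 of 23 exons were higher. Its relative log2 difference was -1.58 with KPT (limma adjusted p = 0.00174) and held when any library was left out (highest adjusted p 0.0150). From Stage 2 to Stage 3+DMSO the relative difference was 1.17 (limma adjusted p = 0.0330), and this call was lost without any one of the 6 libraries (adjusted p from 0.0646 to 0.165). Exon 17 averaged 5.19% ± 0.676 of exons 16 and 18 in Stage 3+DMSO and 2.62% ± 0.0506 with KPT (SD, n = 3) but was not called (limma adjusted p = 0.171).

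**Figure D4:**
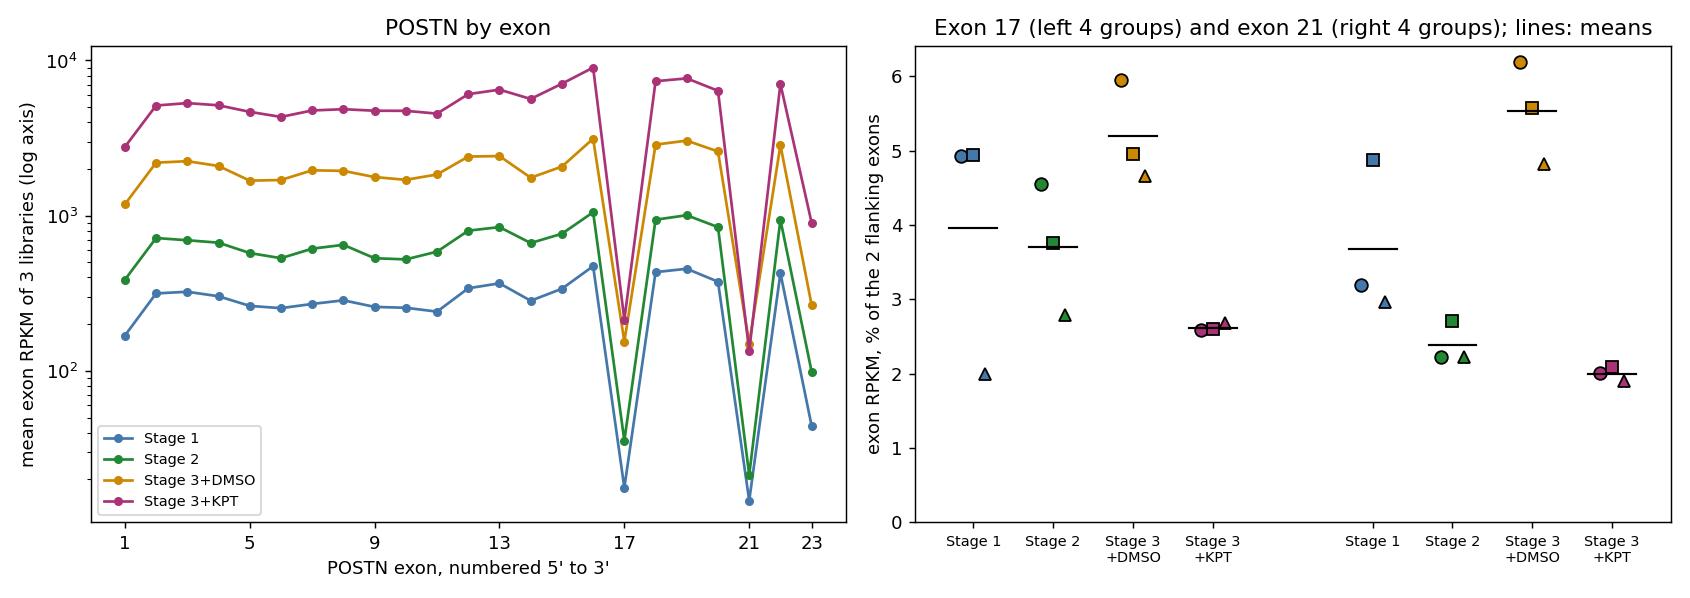
Left, mean RPKM of 3 libraries (log axis) for the 23 POSTN exons in the 4 groups; right, exon 17 and exon 21 as a percentage of the mean of the 2 exons beside each, with a symbol per library and a line at the mean. KPT lies above Stage 3+DMSO at every exon except exon 21, where the share falls from 5.53% to 2.00%.

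Exon 23, the last of POSTN, made up 51.0% of the annotated length but was far lower than the rest, with 265.4 RPKM in Stage 3+DMSO against a median of 2015 over the other 22 exons. The gene RPKM of POSTN is therefore lower than that of most of its exons in all groups. The other calls with KPT were exon 6 of CTHRC1 (relative log2 difference 0.71, limma adjusted p = 0.0288) and exon 17 of THBS1 (-0.15, limma adjusted p = 0.0273). The first was lost without any one library (adjusted p from 0.0555 to 0.118). The second was lost without any library but Stage 3+KPT replicate 2 (adjusted p from 0.0686 to 0.113). With a replicate block neither was called (limma adjusted p = 0.0730 and 0.0523). diffSplice did not call the THBS1 exon either (relative log2 difference -0.085). The number of exons called with KPT was 7 without Stage 3+KPT replicate 2 and 1 without any other library.

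Among other matricellular genes, a list of 26, 24 were found and 15 were tested. From Stage 1 to Stage 2, 10 rose and 3 fell, beside 16.3% higher and 24.4% lower of all tested genes. The median log2 fold change of the 15 was 0.58. With KPT 3 rose and 10 fell, beside 30.5% higher and 29.5% lower, and the median of the 15 was -1.13. SPARCL1, the closest relative of SPARC, rose from 7.91 ± 0.412 to 40.4 ± 6.13 RPKM at Stage 2 (SD, n = 3), a change of 2.21 on the log2 scale (limma adjusted p = 4.38e-06). Its level was 37.5 ± 12.0 in Stage 3+DMSO and 6.02 ± 0.244 with KPT (log2 fold change -2.40, limma adjusted p = 2.52e-07), so it followed the same order of calls as SPARC.

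From Stage 2 to Stage 3+DMSO 6 of the 15 rose and 5 fell, beside 33.0% higher and 11.1% lower of all tested genes. Between Stage 1 and Stage 3+DMSO 8 were higher and 3 lower, beside 30.5% and 17.3%. COMP, the pentameric thrombospondin of cartilage and tendon, rose from 1.58 ± 0.174 to 13.6 ± 2.15 RPKM (log2 fold change 2.49, limma adjusted p = 1.11e-07) and fell to 2.96 ± 0.471 with KPT. THBS4 fell from 6.05 ± 1.67 to 0.722 ± 0.245 RPKM with KPT (log2 fold change -2.02), and THBS3 from 152.7 ± 4.03 at Stage 2 to 77.2 ± 8.61 in Stage 3+DMSO. All thrombospondin genes tested, the 2 members included, were called lower with KPT, beside 29.5% of all tested genes. This grouping was made after the values were seen. CCN3, a member of the CCN family of growth regulators, fell from 662.8 ± 10.4 at Stage 2 to 186.4 ± 13.8 RPKM in Stage 3+DMSO (log2 fold change -1.83, limma adjusted p = 1.17e-08). SMOC1, a calcium-binding relative of SPARC, rose with KPT from 50.7 ± 7.30 to 119.4 ± 12.5 RPKM (log2 fold change 1.22), as did CCN1 and FBLN1 (0.48 and 0.39).

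Of 23 receptors of matricellular proteins, 20 were found and 16 tested. From Stage 1 to Stage 2, 2 rose and 4 fell, beside 16.3% higher and 24.4% lower of all tested genes. The risen genes were CD47, a thrombospondin receptor, and ITGAV, an integrin subunit (log2 fold changes 0.40 and 0.30). This count of 2 was 1 without Stage 1 replicate 1 or 2 or Stage 2 replicate 2 or 3. CD44, an osteopontin receptor, fell by 0.40. From Stage 2 to Stage 3+DMSO, 6 rose and 6 fell, beside 33.0% higher and 11.1% lower of all tested genes. Between Stage 1 and Stage 3+DMSO 5 were higher and 6 lower, beside 30.5% and 17.3%. ITGB3 and ITGB5, which pair with ITGAV to bind periostin and osteopontin, rose from 27.7 ± 1.59 to 67.6 ± 10.5 and from 196.4 ± 12.3 to 439.2 ± 111 RPKM at Stage 3+DMSO (log2 fold changes 1.25 and 1.12).

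With KPT 4 receptors rose and 9 fell, beside 30.5% higher and 29.5% lower of all tested genes. ITGB5 rose further to 1225 ± 51.7 RPKM (n = 3 with SD, log2 fold change 1.51, limma adjusted p = 1.40e-06), the direction taken by POSTN. SDC4, a heparan sulfate proteoglycan, rose from 139.3 ± 14.5 to 273.4 ± 4.45 RPKM. ITGA8 fell from 319.5 ± 23.1 to 123.3 ± 7.53 and ITGA5, a fibronectin receptor subunit, from 277.9 ± 27.1 to 116.2 ± 3.46 RPKM (log2 fold changes -1.37 and -1.25). ITGA9, an osteopontin and tenascin receptor subunit, stood at 1.37 ± 0.679 at Stage 2 and 6.01 ± 0.367 RPKM in Stage 3+DMSO (log2 fold change 1.60). The symbols ITGA9 and CD47 were each held by 2 gene IDs, so the split of their reads is uncertain.

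**Figure D5:**
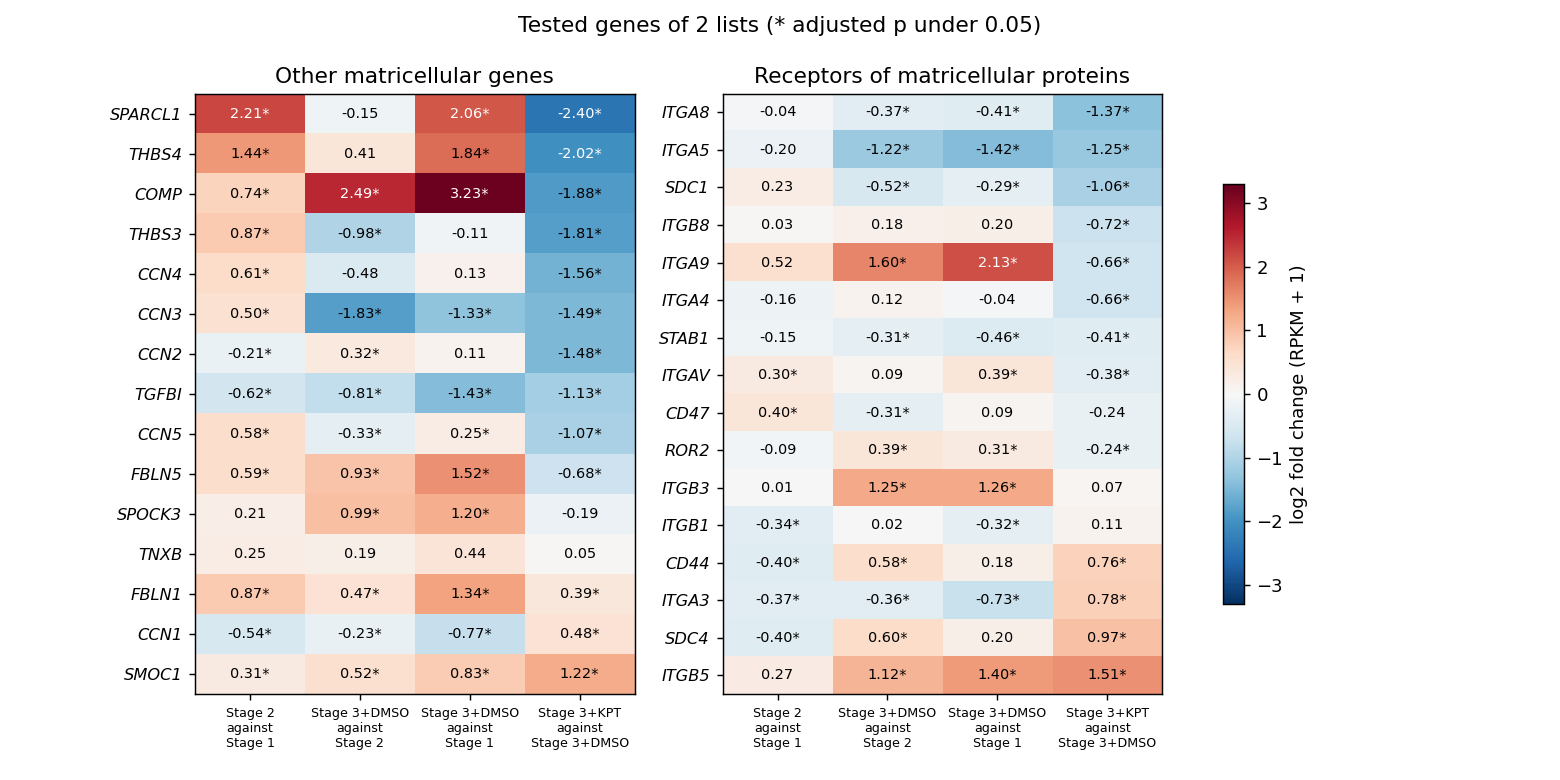
Log2 fold change on the log2(RPKM + 1) scale (colour and number; * marks a limma adjusted p under 0.05) of the 15 tested other matricellular genes and the 16 tested receptors, ordered by the KPT comparison. With KPT 10 and 9 genes are called lower and 3 and 4 higher, beside 29.5% and 30.5% of all tested genes. COMP shows the largest rise before KPT (3.23 against Stage 1).

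Of 22 matrix partners and processing enzymes, 21 were found and 18 tested. From Stage 1 to Stage 2, 12 rose and 2 fell, beside 16.3% higher and 24.4% lower of all tested genes. The 2 that fell became 1 without Stage 1 replicate 1 or 2 or Stage 2 replicate 3. COL3A1, a fibrillar collagen, rose from 3096 ± 215 to 6013 ± 264 RPKM (log2 fold change 0.96, limma adjusted p = 4.45e-05). From Stage 2 to Stage 3+DMSO, 5 rose and 5 fell, beside 33.0% higher and 11.1% lower of all tested genes. Without Stage 3+DMSO replicate 1, 8 fell. MMP14, a membrane-bound collagenase, rose from 852.3 ± 34.7 to 1765 ± 225 RPKM and LOX, the collagen cross-linking enzyme, fell from 419.2 ± 7.21 to 267.4 ± 16.2. Between Stage 1 and Stage 3+DMSO, 11 were higher and 4 lower, beside 30.5% and 17.3% of all tested genes.

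With KPT 5 of the 18 rose and 8 fell, beside 30.5% higher and 29.5% lower of all tested genes. CTSK, cathepsin K, a collagen-degrading protease, rose from 2401 ± 433 to 11020 ± 865 RPKM (n = 3 with SD, log2 fold change 2.21, limma adjusted p = 2.77e-09). ADAMTS1, a protease known to cleave thrombospondins, rose from 11.02 ± 1.43 to 122.6 ± 2.35 RPKM (log2 fold change 3.37, limma adjusted p = 2.12e-10), with its symbol held by 2 gene IDs. COL5A1 fell from 1286 ± 71.3 to 338.6 ± 8.11 RPKM, and SERPINH1, the collagen chaperone, from 2532 ± 215 to 904.2 ± 58.4. Of the 5 that rose, 4 were proteases (ADAMTS1, MMP3, CTSK and MMP2), while the procollagen protease BMP1 fell and MMP14 was not called. The 8 that fell held the 3 tested collagens, COL1A2, COL3A1 and COL5A1. These groupings, and the names MMP2, BMP1, COL1A2 and COL3A1 here, were chosen after the values were seen.

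The genes most like each member were found by the root mean square difference of centred log2(RPKM + 1) values over the 12 libraries, among 10353 tested genes with a symbol. For SPARC they were CYP27A1, TGFBR3 and IGSF3, at 0.13, 0.16 and 0.16 against a median of 0.70 over all candidates. IGSF3 averaged only 0.247, 1.79, 1.81 and 0.416 RPKM from Stage 1 to Stage 3+KPT, so the added 1 RPKM damped its profile. For POSTN they were TIMP3, PLPP3 and MYLIP at 0.34, 0.34 and 0.38 (median 1.54). TIMP3, an inhibitor of metalloproteinases, averaged 95.7, 188.7, 595.3 and 988.6 RPKM from Stage 1 to Stage 3+KPT. For CTHRC1 the nearest, SNAI2, PBK and MAP3K7CL, lay at 0.53 to 0.67 (median 2.04). SNAI2, a transcription factor of mesenchymal cells, averaged 57.0, 98.4, 60.1 and 2.95 RPKM, so it shared the low KPT level.

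For THBS1 the nearest were SYTL2, ARHGEF25 and TPM2 (0.15 to 0.16, median 0.95). TPM2, a tropomyosin of the contractile apparatus, averaged 3004, 2552, 1457 and 790.2 RPKM. For THBS2 they were ARPIN, IL17D and FARP1 (0.11 to 0.12, median 0.51), and for TNC TMEM214, SHB and COL27A1 (0.09 to 0.11, median 0.60). For SPP1 they included BMP4 and DYRK2 (0.24 and 0.25, median 0.51). BMP4, a bone morphogenetic protein, stood at 87.9, 160.3 and 178.6 RPKM in replicates 1, 2 and 3 of Stage 3+DMSO. DYRK2, a protein kinase, stood at 35.2, 61.6 and 63.2 RPKM there. Replicate 1 was the lowest of the group in both, as it was for SPP1, and they were chosen for that likeness. Among the members themselves the closest pair was THBS2 and TNC (0.40) and the most distant CTHRC1 and POSTN (3.23).

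The median of all tested genes lay 0.15 above 0 from Stage 2 to Stage 3+DMSO on the log2 scale. Relative to it, POSTN stood at 1.45, THBS2 at 0.33, SPP1 at 0.32, CTHRC1 at 0.10, SPARC at -0.14, TNC at -0.56 and THBS1 at -0.76. After rescaling by the median ratio the table-wide split of 4309 higher and 1446 lower genes became 2625 and 2543. That of Stage 3+DMSO against Stage 1 went from 3975 and 2251 to 2960 and 3162.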

How the data were processed

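RNA was measured by sequencing in 12 libraries, 3 per group, and samples were grouped by the stage and treatment in the labels. Libraries were made with a TruSeq Stranded mRNA kit, per the labels' protocols, and the submitters' processing notes list TopHat2 2.1.0 for alignment. No source used here names the counter or the genome build. RPKM values of 22861 genes and 189618 exons were deposited by the authors. They came out as whole reads (100% of values within 0.0001 read) when multiplied by exon length and a library total. Reads summed over genes were 1.751 to 1.813 times that total, so Poisson intervals may be too narrow. No source states strand-specific counting, so overlapping and antisense genes may share reads.

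Genes with RPKM of at least 1 in at least 3 libraries were tested on log2(RPKM + 1) with limma 3.58.1 in R 4.3.3. All 12 libraries entered 1 fit with a coefficient per group and an expression trend, with Benjamini-Hochberg adjustment over all tested genes and calls at an adjusted p under 0.05. Fold changes on this scale understate those of low genes. Exons were first to be tested with limma's diffSplice, which called many unchanged exons in simulated data. A moderated test of each exon relative to its gene took its place and diffSplice became an alternative, both chosen after seeing the data. In simulated data for Stage 2 against Stage 1 with a log2 change of 1, 175 of 200 changed genes were recovered with 5 false calls among 13046, and 104 of 200 shifted exons with 4 false calls among 119763.

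Members and lists were chosen with earlier results of these data known. Named were all members, up to 3 called genes per list, direction and comparison with the largest changes (some left out for length), the 3 genes most like each member (1 of them is not reported here), and called exons. No genes named SPOCK1, FSTL1, LRP1, SIRPA, NOTCH1, COL6A1, CDH5 or ACP5 were found. Alternatives were pseudocounts of 0.1 and 0.5, no filter or a minimum of 5 RPKM, median-ratio rescaling, quantile normalization, no trend, the 2 groups alone, quality weights, a replicate block, limma-voom on recovered reads and leaving out each library. Leaving out replicate 1 of every group was added after seeing the data. Replicates of a group differed beyond counting error in all 12 pairs (chi-square of 5.68 to 44.4 per degree of freedom).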

Additional observations from a re-analysis of the deposited data

How the results depend on the processing

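Over 18 alternatives per comparison, 4 to 6 of the 7 genes were called for Stage 2 against Stage 1, 4 to 6 for Stage 3+DMSO against Stage 2, and 6 to 7 for each of the other comparisons. SPARC in Stage 3+DMSO against Stage 2, uncalled at 0.01, turned to -0.15 with median-ratio rescaling (adjusted p = 0.0936), -0.0010 without Stage 2 replicate 2, -0.035 without Stage 3+DMSO replicate 1 and -0.048 without replicate 1 of every group, the lowest value with libraries left out, where the highest was 0.043. SPP1 with KPT turned to 0.053 without Stage 3+DMSO replicate 3, in a range of -0.81 to 0.053 with libraries left out, and with library quality weights it was called in 3 comparisons (log2 0.76, 0.61 and -0.58). TNC at Stage 2, uncalled, passed in 7 alternatives.

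The number of member exons called with KPT, 3, was 5 at a minimum of 5 RPKM and 1 to 7 with a library left out. For Stage 3+DMSO against Stage 2 it went from 1 to 0 when any library was left out. diffSplice called 1 exon where 0 were called for Stage 2 and for Stage 3+DMSO against Stage 1. Same-numbered replicates did not deviate together (r from -0.131 to 0.0748 over 18 pairs, 0 of them above 0.1). With a replicate block the members' calls at gene level were 5, 5, 6 and 6 in the 4 comparisons, as without it, and the exons called with KPT went from 3 to 1. Depth was lowest for CTHRC1 with KPT, at 102 to 202 reads per library.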
